A study of Mus musculus with 6 samples.

Results

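Integrins are the receptors through which the cells of an epithelium hold on to the matrix beneath them, and the sheet they hold on to is the basement membrane. These genes were followed in mouse forelimb bud ectoderm at E10.5. They were the genes whose symbol names an integrin alpha or beta subunit, a laminin alpha, beta or gamma chain, a type IV collagen chain or a nidogen. The rule found 45 of the 49452 genes in the table, of which 26 encode integrin subunits and 19 encode basement membrane chains. The rule itself reads gene names and no measured value, although it was written with earlier results of these data known.

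The study compared 3 Sp8 null embryos with 3 wild-type embryos, all at E10.5 and all labelled with the C57BL6J background. Sp8 encodes a zinc finger protein that controls transcription in this ectoderm. Null embryos came from matings between heterozygous carriers of an allele labelled Sp8-Cre-ERT2, which puts a drug-inducible Cre recombinase at the Sp8 gene, and no inducing drug is named in the labels. Wild-type embryos came from separate C57BL/6 matings, so the groups differ in their cross as well as in their genotype. Each library was made from polyadenylated RNA of the trypsin-freed ectoderm of both forelimbs of 1 embryo, so the replicates are separate embryos. The values are FPKM, fragment counts scaled for library depth and transcript length, so levels can be compared between genes.

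An integrin is a pair of 1 alpha and 1 beta subunit, and the pair decides which matrix protein is bound. The basement membrane is built from a network of laminin, itself a trimer of 1 alpha, 1 beta and 1 gamma chain, and a network of type IV collagen, with nidogen and the heparan sulfate proteoglycan perlecan joining them. In the limb bud this sheet separates the ectoderm, with its apical ridge, from the mesenchyme. Mouse embryos that lack the laminin chain Lama5 have a defective ridge basement membrane and joined digits.

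The targeted gene followed its labels, with Sp8 at 8.35, 10.97 and 13.5 FPKM in wild-type embryos 1, 2 and 3 and at 0.766, 0.460 and 1.14 FPKM in Sp8 null embryos 1, 2 and 3 (log2 change -2.73, limma adjusted p = 0.000361). Read totals are not known. Relative depth, with wild-type embryo 1 set to 1, lay between 0.856 and 1.03 in the other libraries. Markers of surface ectoderm, the labelled tissue, were high in every library, their 10 genes summing to between 485.8 and 612.6 FPKM. Within that list Epcam was called lower (log2 change -0.53, limma adjusted p = 0.0313) and Tfap2a higher (0.52, 0.0163), and the keratins Krt5 and Krt14 lay lower without overlap and were not called (-0.28 and -0.39, adjusted p = 0.08 and 0.11). These shifts are of the size of several reported below for integrins, and their part in those was not tested. The 10 limb mesenchyme markers summed to 53.3, 174 and 47.1 FPKM in Sp8 null embryos 1, 2 and 3 and to 80.8, 46.7 and 69.5 FPKM in wild-type embryos 1, 2 and 3, so Sp8 null embryo 2 stood apart. The 6 erythroid markers summed to 421.7 FPKM in wild-type embryo 1. They summed to 36.1 and 11.6 FPKM in the wild-type embryos 2 and 3 and to 161, 61.9 and 101.8 FPKM in Sp8 null embryos 1, 2 and 3, so wild-type embryo 1 stood apart as well. In bulk RNA, fewer cells of a type and less RNA per cell cannot be told apart.

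Of the 45 members, 23 reached 1 FPKM in at least 3 libraries and were tested, and 22 did not. Of the 23, the genes Itga4, Itgb8 and Itgb4 reached 1 FPKM in wild type alone. That route admits genes with a large fall, so counts over the tested members are given as descriptions. Between the genotypes 7 members were called different (limma, Benjamini-Hochberg adjusted p under 0.05 over 12133 genes), 6 lower and 1 higher in Sp8 null. This is 30.4% of the 23 tested members, against 6.83% of all tested genes. Among the 20 tested members that did not pass through wild type alone, 5 were called, or 25.0%. Over all tested genes 5.15% were called lower and 1.68% higher, 625 and 204 genes. That split was 545 lower and 323 higher, 7.15% in all, under median-of-ratios scaling, and 507 lower and 363 higher under upper-quartile scaling. The members' calls were then 5 lower and 1 higher under either scaling, with Lamb1 lost. With a filter on the mean over all 6 libraries of at least 1 FPKM, 6 of 23 members were called against 5.02% of genes, and with a mean of at least 5 FPKM 6 of 15 against 8.32%. With no filter 2 of 43 were called against 1.23%.

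The called members were mostly integrin subunits. Of 26 integrin subunits 10 were tested, 5 fell and 1 rose, and 4 were not called. Without Itga4, Itgb8 and Itgb4, which passed the filter through wild type alone, 7 remain, of which 3 fell and 1 rose, with a median log2 change of -0.36. Of 19 basement membrane chains 13 were tested and 1 was called, lower, which is 7.69% and close to the background of 6.83%. The median log2 change was -0.52 for the 10 integrin subunits, 0.002 for the 13 basement membrane chains and -0.06 for all 12133 tested genes. Whether the shares of the 2 sets differ was not tested. Groups did not overlap for 12 of the 23 tested members, 10 lower and 2 higher, against 29.8% of all tested genes, of which 21.1% were lower and 8.63% higher. Among the 20 members that did not pass through wild type alone, 7 were lower and 2 higher without overlap.

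**Figure D1:**
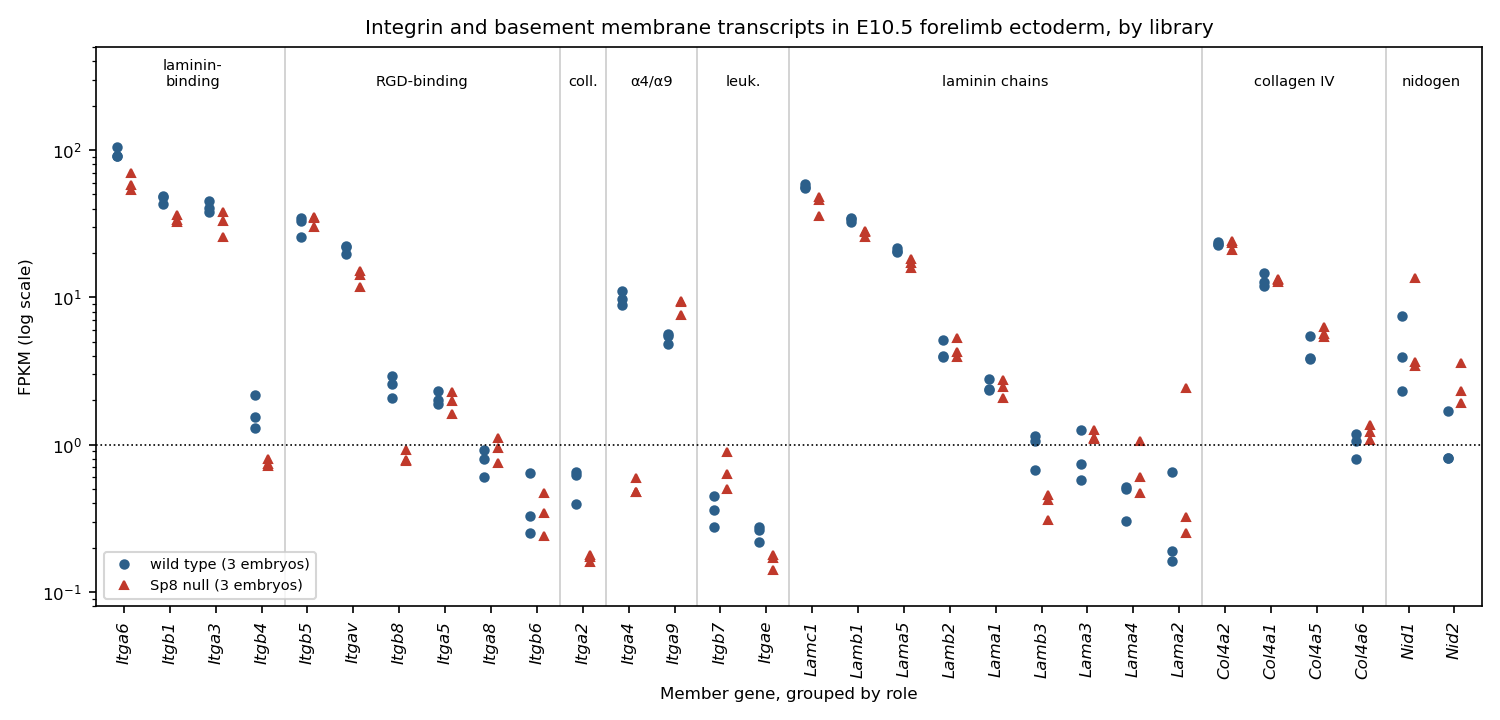
FPKM of each library on a log axis for 30 members with a mean of at least 0.2 FPKM in 1 genotype, grouped by role, with circles for the 3 wild-type and triangles for the 3 Sp8 null embryos. Itga4 shows the widest gap between the genotypes, and the dotted line marks 1 FPKM, the level used in the filter.

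**Figure D2:**
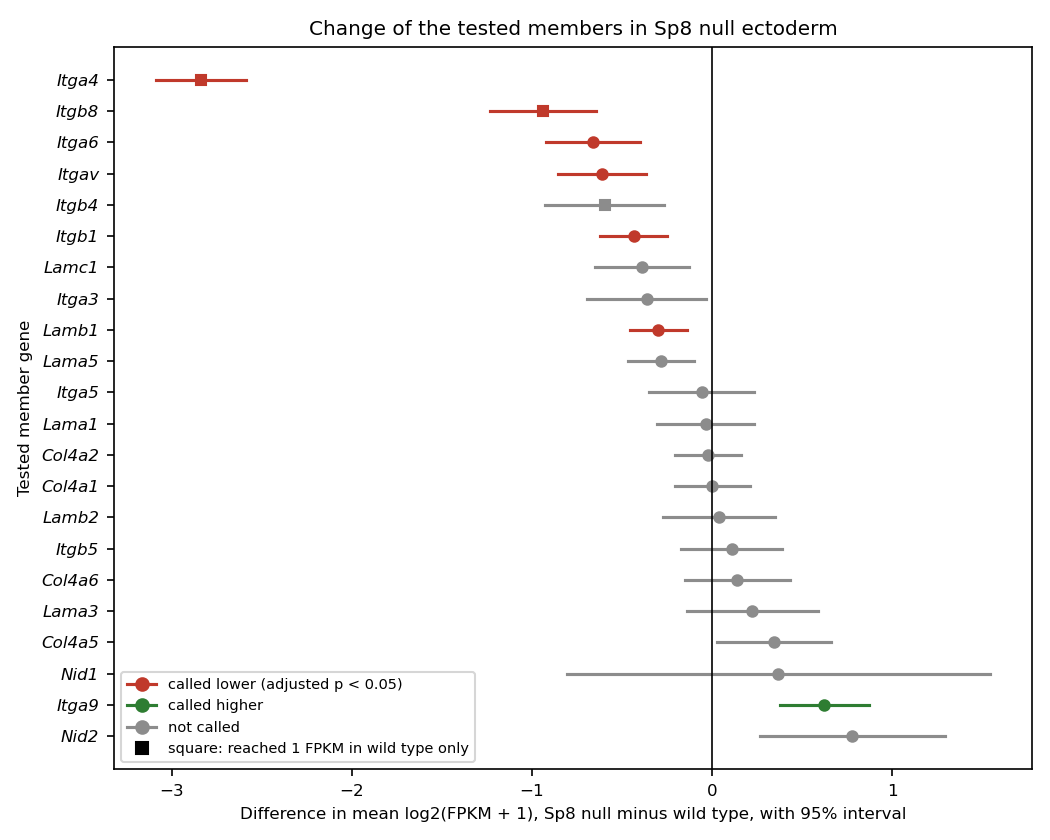
Difference between Sp8 null and wild type in mean log2(FPKM + 1) for 22 tested members, with 95% intervals from limma (n = 3 libraries per genotype). Itga4 lies at -2.84, Itga9 is the 1 member called higher, and the type IV collagen chains Col4a1 and Col4a2 lie close to 0.

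Itga4 and Itga9 form a subfamily of alpha subunits that bind fibronectin splice forms, VCAM-1, tenascin and osteopontin, and they changed in opposite directions. Itga4 (ENSMUSG00000027009; GRCm38, chromosome 2, 79255426 to 79333123, plus strand) was at 8.89, 10.99 and 9.72 FPKM in wild-type embryos 1, 2 and 3. It was at 0.475, 0.597 and 0.476 FPKM in Sp8 null embryos 1, 2 and 3. Every null library was far below every wild-type library, and the ratio of wild-type to null means was 19.1. The means were 9.87 ± 1.06 FPKM in wild type and 0.516 ± 0.0700 FPKM in Sp8 null (SD over n = 3 embryos each), a log2 change of -2.84 (SE 0.11; limma adjusted p = 1.5e-05). The call held in every alternative run, with limma adjusted p-values up to 0.000744. The value moved most with a pseudocount of 0.1, to -4.02.

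The exons of Itga4 overlap those of Cerkl, a ceramide kinase-like gene on the opposite strand, over 1124 bases, or 8.04% of the exon bases of Itga4. Use of strand in counting is not stated in the sources used here. Cerkl was at 6.10, 9.08 and 7.97 FPKM in wild-type embryos 1, 2 and 3 and at 0.277, 0.626 and 0.375 FPKM in Sp8 null embryos 1, 2 and 3 (log2 change -2.60, limma adjusted p = 0.00018). Both genes of the overlapping pair thus fell, and how many reads in the shared bases came from each strand was not tested. Neural crest cells and leukocytes also carry this subunit. The neural crest markers summed to between 9.18 and 10.3 FPKM in wild type and between 9.82 and 11.6 FPKM in Sp8 null.

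Itga9 (chromosome 9, 118606690 to 118901003, plus strand) was at 4.85, 5.64 and 5.49 FPKM in wild-type embryos 1, 2 and 3. It was at 9.34, 7.60 and 9.40 FPKM in Sp8 null embryos 1, 2 and 3, all above every wild-type library. The means were 5.33 ± 0.420 FPKM in wild type and 8.78 ± 1.02 FPKM in Sp8 null (SD over n = 3 embryos each; log2 change 0.62, SE 0.11, limma adjusted p = 0.0166). Itga4 was thus above Itga9 in each wild-type library and below it in each null library. The rise of Itga9 kept its size, between 0.57 and 0.71 over all alternatives. Its limma adjusted p was 0.0625 without Sp8 null embryo 1, 0.0503 without Sp8 null embryo 3, and 0.0542 and 0.0545 without wild-type embryos 1 and 2. As a share of the summed FPKM of all alpha subunits, Itga4 was 5.56% in wild type and 0.444% in Sp8 null, and Itga9 was 3.01% and 7.39%.

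The promoter of Itga4 is shown because it belongs to the member with the largest change. The 300 bases run from 250 bases before to 50 bases after the RefSeq start (GRCm38.p6, plus strand, chr2:79255176-79255475). Sp-family zinc fingers are known to bind GC boxes and CACCC boxes, so the capitals mark GGGCGG and CACCC on either strand, which share no letters here.

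Itga4: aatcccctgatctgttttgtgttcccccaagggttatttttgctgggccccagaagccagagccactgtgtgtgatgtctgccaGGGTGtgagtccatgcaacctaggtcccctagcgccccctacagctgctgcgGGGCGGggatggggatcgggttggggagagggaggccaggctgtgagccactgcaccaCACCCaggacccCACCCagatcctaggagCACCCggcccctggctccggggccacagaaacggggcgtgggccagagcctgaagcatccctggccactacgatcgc

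The Itga4 window holds 1 GC box and 4 CACCC boxes. A GC box is in 35.7% and a CACCC box in 57.5% of the 32851 promoters of the same length in the RefSeq table, so holding them is common. RefSeq promoters were found for 29 of the 45 members, in 32 windows, of which 53.1% held a GC box and 68.8% a CACCC box. The homeodomain core TAATTA, read the same on both strands, was in none of the 32 and in 5.29% of all promoters. A match describes letters and not binding.

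The laminin-binding subunits included the 2 most abundant alpha subunits, Itga6 and Itga3, and the most abundant beta subunit, Itgb1. Each of the 4 that were tested had a lower mean in Sp8 null, and Itga6 and Itgb1 fell. Of these 4, Itgb4 passed the filter through wild type alone, a route that admits genes with a fall. Over all 12133 tested genes 7432 had a lower mean in Sp8 null. Itga6 (chromosome 2, 71745616 to 71858416), which pairs with Itgb1 or, in hemidesmosomes, with Itgb4, had the highest mean of all 45 members in both genotypes. It was at 91.7, 104.8 and 90.3 FPKM in wild-type embryos 1, 2 and 3 and at 58.3, 53.2 and 69.96 FPKM in Sp8 null embryos 1, 2 and 3. The groups did not overlap, with means of 95.6 and 60.5 FPKM (log2 change -0.66, SE 0.11, limma adjusted p = 0.0163). Without Sp8 null embryo 1 the adjusted p was 0.0634 in limma, and without wild-type embryo 2 it was 0.0675, with changes of -0.64 and -0.59.

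Itgb1 (chromosome 8, 128685654 to 128733200), the beta subunit shared by most matrix-binding integrins, was at 47.7, 48.7 and 42.7 FPKM in wild-type embryos 1, 2 and 3. It was at 32.3, 33.5 and 36.3 FPKM in Sp8 null embryos 1, 2 and 3, below every wild-type library. The log2 change was -0.43 (SE 0.08; limma adjusted p = 0.0217). The limma adjusted p was 0.0721 and 0.0715 without Sp8 null embryos 1 and 2, and 0.0773 and 0.0997 without wild-type embryos 1 and 2. The direction was the same in every alternative, with values from -0.49 to -0.34.

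Itga3, the other abundant laminin-binding alpha subunit, was at 37.9, 45.05 and 40.3 FPKM in wild-type embryos 1, 2 and 3 and at 32.9, 25.5 and 37.9 FPKM in Sp8 null embryos 1, 2 and 3. The highest null and the lowest wild-type library nearly met, and the gene was not called (log2 change -0.36, SE 0.14, 95% interval -0.69 to -0.03, limma adjusted p = 0.174). Itgb4, the hemidesmosome beta subunit, was at 1.55, 1.30 and 2.15 FPKM in wild-type embryos 1, 2 and 3 and at 0.797, 0.710 and 0.740 FPKM in Sp8 null embryos 1, 2 and 3. These groups did not overlap, and the limma adjusted p of 0.0505 lay just past the threshold (log2 change -0.60, SE 0.14). Itgb4 was not called in 15 of 17 alternatives, with limma adjusted p-values up to 0.211, and was called in the other 2, at 0.0498 without genes that had a failed estimate and at 0.039 without the mean-variance trend. The muscle subunit Itga7 was at or near 0, with 0.0219 FPKM as its highest library.

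**Figure D3:**
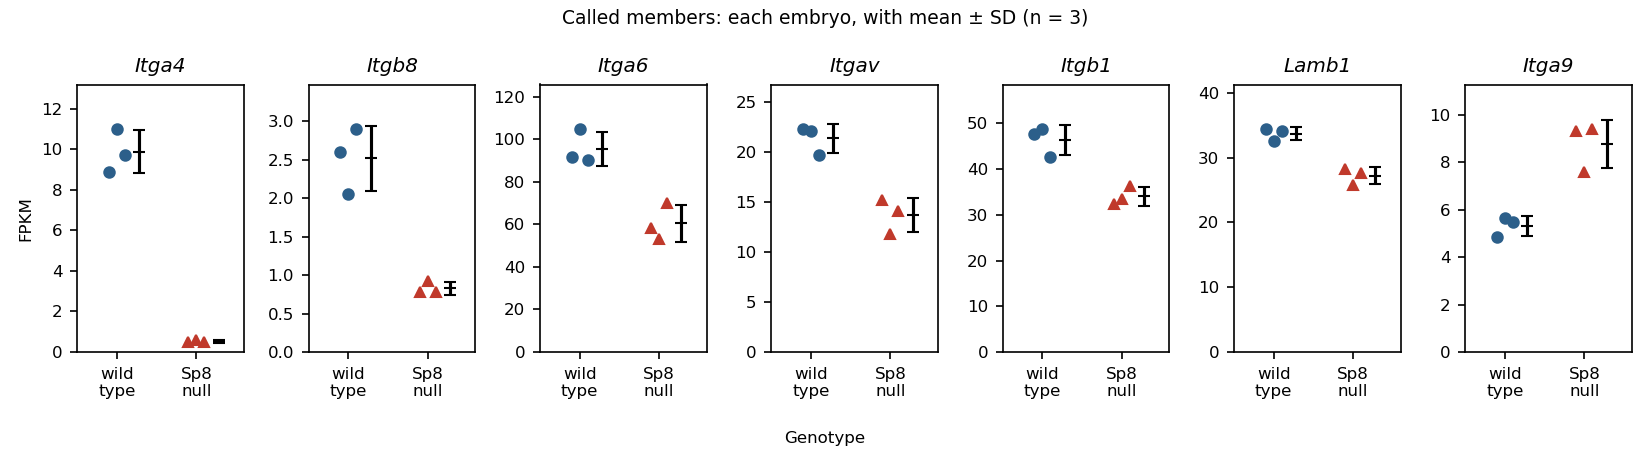
FPKM of each embryo for the 7 called members, each panel on its own linear axis from 0, with circles for wild type, triangles for Sp8 null and the mean ± SD beside them (n = 3). In every panel the 3 Sp8 null values lie on 1 side of the 3 wild-type values, above them for Itga9 and below them for the others.

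The RGD-binding subunits recognise the short peptide motif of that name in fibronectin, vitronectin and the latent form of TGF-beta. Itgav (chromosome 2, 83724397 to 83806916), the alpha partner of Itgb3, Itgb5, Itgb6 and Itgb8, was at 22.3, 22.04 and 19.7 FPKM in wild-type embryos 1, 2 and 3. It was at 15.1, 11.8 and 14.1 FPKM in Sp8 null embryos 1, 2 and 3. All null libraries lay below all wild-type libraries, and the log2 change was -0.61 (SE 0.10; limma adjusted p = 0.0166). Without wild-type embryo 1 or 2 the limma adjusted p was 0.0581 and 0.0742, with changes of -0.58 and -0.59.

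Itgb8, which with Itgav binds latent TGF-beta and helps to release the active form, had the second largest fall on the log2 scale. It was at 2.60, 2.06 and 2.90 FPKM in wild-type embryos 1, 2 and 3 and at 0.775, 0.921 and 0.785 FPKM in Sp8 null embryos 1, 2 and 3. The means were 2.52 ± 0.426 and 0.827 ± 0.0817 FPKM (SD over n = 3 embryos each), a ratio of 3.04 and a log2 change of -0.94 (SE 0.13; limma adjusted p = 0.00645). Leaving out any 1 library kept the call, and with a pseudocount of 0.1 the value was -1.49. Tgfb1, which encodes a ligand of this pair, fell (log2 change -0.78, SE 0.13, limma adjusted p = 0.0151), from 1.11, 1.38 and 1.64 FPKM in wild-type embryos 1, 2 and 3 to 0.445, 0.340 and 0.345 FPKM in Sp8 null embryos 1, 2 and 3. It reached 1 FPKM in wild type alone, and with no filter its limma adjusted p was 0.0538. Tgfb3, which encodes another ligand, was under the filter, with overlapping groups at 0.668, 0.436 and 0.526 FPKM in wild-type embryos 1, 2 and 3 and at 0.541, 1.19 and 0.533 FPKM in Sp8 null embryos 1, 2 and 3.

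Itgb8 lies on the chromosome that carries Sp8 (chromosome 12, 119158022 to 119238802, minus strand), with a gap of 305.4 kb between the genes. It was the 1 called gene among 9 tested within 3 Mb of Sp8. Its nearest tested neighbours around Sp8 were Sp4, another Sp-family gene, at -0.39 (limma adjusted p = 0.0637), Macc1 at -0.15 (0.467), Dnah11 at -0.40 (0.0526) and Cdca7l at -0.48 (0.0599), each value being the log2 change with its limma adjusted p. Of these 9 genes 8 had a lower mean in Sp8 null, as did 7432 of all 12133 tested genes. Itgb8 is itself among the 9 and passed the filter through wild type alone. Whether the share near Sp8 differs from that of all genes was not tested. Since loss of Sp8 and the allele go together in every null embryo, loss of Sp8 and an effect of the allele on its neighbourhood cannot be told apart. The wild-type embryos also came from separate matings, and the part of that difference was not tested.

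**Figure D4:**
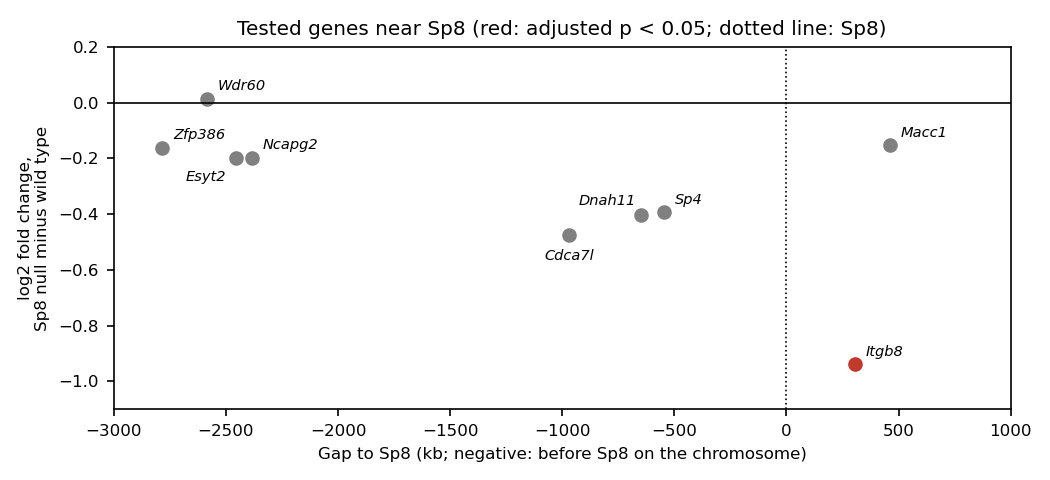
Log2 fold change between Sp8 null and wild type for the 9 tested genes within 3 Mb of Sp8, by the gap to Sp8 in kb (3 libraries per genotype, no error shown). Itgb8, in red, is the called gene and lies at -0.94, while the others lie between -0.48 and 0.01.

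The promoter of Itgb8 is shown to set the member nearest to Sp8 beside Itga4 (GRCm38.p6, minus strand, chr12:119238227-119238526, printed 5′ to 3′ along the gene, with the same marks). Its RefSeq start lies 526 bases inside the gene as GENCODE draws it.

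Itgb8: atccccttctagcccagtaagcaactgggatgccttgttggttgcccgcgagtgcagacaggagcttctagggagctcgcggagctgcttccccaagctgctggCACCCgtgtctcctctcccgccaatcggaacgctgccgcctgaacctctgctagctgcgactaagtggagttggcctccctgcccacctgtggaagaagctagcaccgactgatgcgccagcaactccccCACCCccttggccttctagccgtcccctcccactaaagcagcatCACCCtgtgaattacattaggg

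The Itgb8 window holds no GC box and 3 CACCC boxes, so the 2 members with the largest falls share the CACCC letters and not the GC box.

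Itgb5, the most abundant of the partners of Itgav named above, was not called. It was at 34.3, 32.8 and 25.6 FPKM in wild-type embryos 1, 2 and 3 and at 35.1, 30.1 and 34.6 FPKM in Sp8 null embryos 1, 2 and 3. The groups overlapped and the difference was 0.11 with a 95% interval of -0.17 to 0.39 (limma adjusted p = 0.628). Itgb5 was below Itgb1 in each wild-type library, while in Sp8 null it was above Itgb1 in embryo 1 and below it in embryos 2 and 3. The share of Itgb5 in the summed FPKM of all beta subunits was 37.4% ± 2.47 in wild type and 47.5% ± 2.32 in Sp8 null, and that of Itgb1 was 56.3% ± 1.55 and 48.6% ± 2.37 (SD over n = 3 embryos each). Itga5, the fibronectin receptor subunit, lay between 1.61 and 2.32 FPKM in all libraries and was not called (log2 change -0.06, limma adjusted p = 0.816). Itga8, Itgb6, Itgb3 and Itga2b were under the filter, with highest libraries of 1.10, 0.646, 0.139 and 0.132 FPKM.

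Collagen-binding and leukocyte subunits were scarce. None of the 4 collagen-binding alpha subunits was tested, and their highest library was 0.649 FPKM, in Itga2. Itga2, a collagen receptor subunit of platelets and keratinocytes, was at 0.617, 0.398 and 0.649 FPKM in wild-type embryos 1, 2 and 3 and at 0.173, 0.179 and 0.160 FPKM in Sp8 null embryos 1, 2 and 3. The groups did not overlap. With no filter on low values the limma adjusted p of Itga2 was 0.0893, a log2 difference of -0.41. Megakaryocyte markers summed to at most 0.947 FPKM, with Gp9 at 0 in every library. Itga1, Itga10 and Itga11 stayed at or below 0.219 FPKM in every library.

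Of the 7 leukocyte subunits none was tested, and Itgad and Itgax were listed at 0 in all 6 libraries. Itgb7, a beta subunit of lymphocytes and mast cells, was at 0.274, 0.444 and 0.357 FPKM in wild-type embryos 1, 2 and 3 and at 0.629, 0.496 and 0.889 FPKM in Sp8 null embryos 1, 2 and 3, so that the groups did not overlap. Its limma adjusted p with no filter was 0.317. Itgam, a macrophage subunit, was at most 0.0979 FPKM, and Itgb2, the beta subunit it needs, at most 0.127 FPKM. Itgae was at 0.252 ± 0.0316 FPKM in wild type and 0.162 ± 0.0191 FPKM in Sp8 null (SD over n = 3 embryos each), and Itgal was at most 0.0378 FPKM. The 9 macrophage markers summed to between 1.41 and 4.37 FPKM, and the mean of each was above its wild-type mean in Sp8 null, Cd68 being highest at 2.38 FPKM. C1qa was at 0 in 5 of the 6 libraries. The part of such cells in the level of Itgb7 was not tested.

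Summed over all 18 alpha subunits, FPKM was 170.1, 192 and 169 in wild-type embryos 1, 2 and 3 and 119, 103 and 135 in Sp8 null embryos 1, 2 and 3. Over all 8 beta subunits it was 87.4, 85.8 and 74.04 in wild type and 70.2, 66.4 and 73.8 in Sp8 null, in the same order of embryos. The alpha sums stand clear of each other, while the lowest wild-type beta sum and the highest null beta sum are close together. In wild type the order of alpha means was Itga6, Itga3, Itgav, Itga4, Itga9 and Itga5, with no overlap of libraries between neighbours. In Sp8 null it was Itga6, Itga3, Itgav, Itga9, Itga5 and Itga8, with Itga4 next, and neighbours again did not overlap down to Itga8. The order of the most abundant subunits was thus shared, and Itga4 moved from the fourth to the seventh place.

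Among the laminins, the chains of the trimer typical of embryonic epithelia, Lama5, Lamb1 and Lamc1, were the most abundant of their kind in every library. Lamb1 (chromosome 12, 31265234 to 31329644) was the 1 chain called, at 34.4, 32.5 and 34.1 FPKM in wild-type embryos 1, 2 and 3 and at 28.2, 25.8 and 27.7 FPKM in Sp8 null embryos 1, 2 and 3. The groups did not overlap, and the log2 change was -0.30 (SE 0.07; limma adjusted p = 0.0434). This call is close to the threshold, was lost in 15 of 18 alternatives, and was lost without any 1 of the 6 libraries (limma adjusted p from 0.0767 to 0.131, changes from -0.32 to -0.26).

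Lama5 was at 21.8, 20.6 and 20.3 FPKM in wild-type embryos 1, 2 and 3 and at 17.1, 15.7 and 18.2 FPKM in Sp8 null embryos 1, 2 and 3. Lamc1 was at 54.96, 58.5 and 55.8 FPKM in wild type and at 48.01, 35.6 and 45.9 FPKM in Sp8 null, in the same order. For both chains every null library lay below every wild-type library. Neither was called, with log2 changes of -0.28 (SE 0.08, limma adjusted p = 0.0775) and -0.39 (SE 0.11, limma adjusted p = 0.0867). The 95% intervals, before adjustment, ran from -0.47 to -0.10 for Lama5 and from -0.65 to -0.12 for Lamc1.

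Lama3 and Lamb3, chains of epidermal laminin, were scarce. Lama3 lay between 0.577 and 1.25 FPKM in all libraries (log2 change 0.22, limma adjusted p = 0.432). Lamb3 was under the filter, at 1.06, 0.676 and 1.15 FPKM in wild-type embryos 1, 2 and 3 and at 0.309, 0.456 and 0.421 FPKM in Sp8 null embryos 1, 2 and 3. The 2 groups of Lamb3 did not overlap, and with no filter its limma adjusted p was 0.16. Lamb1 made up 86.4% of the summed beta chain FPKM in wild type and 84.7% in Sp8 null.

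Lama1, the chain of the earliest embryonic basement membranes, lay between 2.08 and 2.78 FPKM (log2 change -0.04, limma adjusted p = 0.885), and Lamb2 between 3.94 and 5.32 FPKM (log2 change 0.04, limma adjusted p = 0.889). Lama1 turned slightly higher under both other scalings. Lamc3 was at most 0.0245 FPKM.

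Type IV collagen showed no called change in any of its 4 tested chains. Col4a2 was at 23.6, 22.7 and 23.1 FPKM in wild-type embryos 1, 2 and 3 and at 24.2, 20.8 and 23.4 FPKM in Sp8 null embryos 1, 2 and 3. Col4a1 was at 14.6, 12.7 and 11.9 FPKM in wild type and at 13.3, 13.1 and 12.7 FPKM in Sp8 null, in the same order. Groups overlapped for both, and the 95% interval of the difference was -0.20 to 0.16 for Col4a2 and -0.20 to 0.21 for Col4a1 in log2 terms (limma adjusted p = 0.894 and 0.992). The sign of differences this small depended on scaling for Col4a2 and on the libraries used for Col4a1.

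Col4a5 was at 5.45, 3.79 and 3.85 FPKM in wild-type embryos 1, 2 and 3 and at 6.25, 5.37 and 5.67 FPKM in Sp8 null embryos 1, 2 and 3. Wild-type embryo 1 fell among the null libraries, and the gene was not called (log2 change 0.34, SE 0.13, limma adjusted p = 0.172). Its head-to-head partner Col4a6 lay between 0.793 and 1.35 FPKM (log2 change 0.14, limma adjusted p = 0.547). Col4a3 and Col4a4, chains of mature kidney and lung basement membrane, were at most 0.187 and 0.0786 FPKM. The type IV chains summed to 41.7 ± 2.67 FPKM in wild type and 42.97 ± 2.36 FPKM in Sp8 null (SD over n = 3 embryos each).

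Col4a1 and Col4a2 are transcribed away from each other from a shared start region, and their promoters are shown because both chains are abundant and neither was called. Col4a1 (chr8:11312777-11313076, minus strand) and Col4a2 (chr8:11312555-11312854, plus strand) are given in GRCm38.p6, each 5′ to 3′ along its own gene, with GC and CACCC boxes in capitals. The windows share 78 bases, and the annotated starts lie 21 bases apart.

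Col4a1: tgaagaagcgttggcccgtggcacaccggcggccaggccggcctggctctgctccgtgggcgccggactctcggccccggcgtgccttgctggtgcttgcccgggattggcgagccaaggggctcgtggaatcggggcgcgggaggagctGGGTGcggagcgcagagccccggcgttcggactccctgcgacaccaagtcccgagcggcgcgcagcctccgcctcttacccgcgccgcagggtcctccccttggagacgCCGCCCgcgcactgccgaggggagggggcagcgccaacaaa

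Col4a2: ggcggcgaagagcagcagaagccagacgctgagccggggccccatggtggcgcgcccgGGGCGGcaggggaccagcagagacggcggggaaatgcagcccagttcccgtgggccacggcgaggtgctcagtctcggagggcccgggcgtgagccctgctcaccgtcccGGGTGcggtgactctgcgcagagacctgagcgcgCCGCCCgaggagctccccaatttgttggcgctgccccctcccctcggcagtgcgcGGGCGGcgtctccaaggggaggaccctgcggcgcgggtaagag

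The Col4a1 window holds 1 GC box and 1 CACCC box, and the Col4a2 window 3 GC boxes and 1 CACCC box. The GC box of Col4a1 lies in the bases shared by both windows. It is the same site as 1 of the 3 GC boxes of Col4a2, read on the other strand. The GC box is therefore found in the promoters of this uncalled pair as well as in that of Itga4.

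The nidogens link the laminin and type IV collagen networks and are made largely by mesenchymal cells in developing organs. Nid2 was at 1.68, 0.816 and 0.808 FPKM in wild-type embryos 1, 2 and 3 and at 1.92, 3.59 and 2.32 FPKM in Sp8 null embryos 1, 2 and 3. The groups did not overlap, and the gene was not called (log2 change 0.78, SE 0.22, limma adjusted p = 0.0802). Without Sp8 null embryo 2 the difference was 0.59 (limma adjusted p = 0.196). The exons of Nid2 overlap those of Rtraf on the opposite strand over 437 bases, or 8.45% of the exon bases of Nid2, and that gene was at up to 30.1 FPKM.

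Nid1 was at 7.48, 2.31 and 3.92 FPKM in wild-type embryos 1, 2 and 3 and at 3.65, 13.4 and 3.43 FPKM in Sp8 null embryos 1, 2 and 3. Sp8 null embryo 2 was the highest and wild-type embryo 1 the second highest, and these libraries were also first and second in the summed limb mesenchyme markers. The difference of Nid1 was 0.37 (SE 0.50; limma adjusted p = 0.699), and it turned to -0.19 without Sp8 null embryo 2. Lama2 and Lama4, laminin alpha chains of muscle and of vessels, were under the filter and were also highest in Sp8 null embryo 2. Lama2 was at 0.656, 0.163 and 0.189 FPKM in wild-type embryos 1, 2 and 3 and at 0.320, 2.41 and 0.253 FPKM in Sp8 null embryos 1, 2 and 3. Lama4 was at 0.502, 0.302 and 0.519 FPKM in wild type and at 0.466, 1.05 and 0.601 FPKM in Sp8 null, in the same order.

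Of the 10 mesenchyme markers 9 were tested and none was called. Prrx1, a defining limb mesenchyme factor, was at 53.3 FPKM in Sp8 null embryo 2 and between 3.92 and 16.5 FPKM in the other libraries. The markers of this list did not all move one way. Meox1 was lowest of all libraries in Sp8 null embryo 2, at 1.83 FPKM, and Pdgfra was at 19.5 FPKM there and between 19.8 and 23.8 FPKM in wild type. Meox1 and Pdgfra were lower in Sp8 null without overlap and Col3a1 higher without overlap (log2 changes -0.99, -1.15 and 1.45, limma adjusted p = 0.0678, 0.12 and 0.163). No mesenchyme marker was at 0 in any library. The part of mesenchymal RNA in the levels of the nidogens, Lama2 and Lama4 was not tested. With Sp8 null embryo 2 and wild-type embryo 1 both left out, which was chosen after seeing the data, Itga4 and Itga9 were the 2 members still called (log2 changes -2.94 and 0.66, limma adjusted p = 0.000351 and 0.0344). Itgb8 was then at -0.96 (limma adjusted p = 0.051), Itga6 at -0.60 (0.0823), Itgav at -0.48 (0.0951), Itgb1 at -0.40 (0.168) and Lamb1 at -0.25 (0.284).

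**Figure D5:**
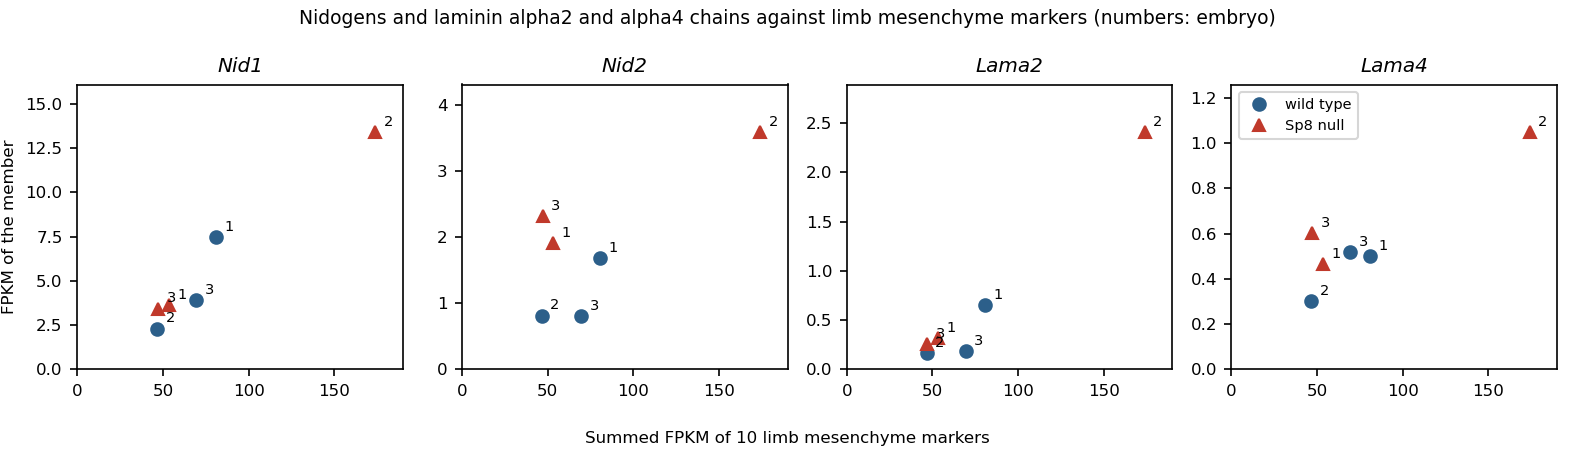
FPKM of Nid1, Nid2, Lama2 and Lama4 against the summed FPKM of 10 limb mesenchyme markers, 1 point per embryo with its number, circles for wild type and triangles for Sp8 null. Sp8 null embryo 2, at a marker sum of 174, is the highest point in every panel.

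The genes that work with these members were counted next, beside the background of 6.83% called. Over the 5 lists 14 genes were called, of which 7 were not called with no filter on low values. These were Agrn (limma adjusted p = 0.0517), Tgfb1 (0.0538), P4ha1 (0.0565), P4hb (0.0661), Tns3 (0.0784), Smoc2 (0.0792) and Fermt2 (0.0939). Of 19 other basement membrane components, 15 were tested and 5 were called. Frem1, of the FRAS and FREM complex that fastens embryonic epidermis to its basement membrane, fell from 10.8 ± 1.40 to 3.47 ± 0.308 FPKM (SD over n = 3 embryos each; log2 change -1.40, SE 0.11, limma adjusted p = 0.000635). Its complex partners Fras1 and Frem2 were not called (log2 changes -0.05 and -0.01, limma adjusted p = 0.806 and 0.972). Agrn, the laminin-binding proteoglycan agrin, fell by 0.41 in log2 terms (limma adjusted p = 0.0182). Hmcn1, an extracellular hemicentin, rose from 3.38 ± 0.766 to 7.40 ± 0.611 FPKM (log2 change 0.95, limma adjusted p = 0.00846). The calcium-binding basement membrane proteins Smoc1 and Smoc2 rose by 2.21 and 1.05 in log2 terms (limma adjusted p = 0.000479 and 0.0163). Hspg2, which encodes perlecan, and Npnt, the nephronectin ligand of Itga8, were not called (log2 changes -0.12 and 0.02, limma adjusted p = 0.672 and 0.905).

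All 8 other laminin receptors and hemidesmosome genes were tested, and 1 was called. Col17a1, the transmembrane collagen of hemidesmosomes, fell from 2.09 ± 0.178 to 0.616 ± 0.00903 FPKM (SD over n = 3 embryos each; log2 change -0.93, SE 0.11, limma adjusted p = 0.00346), reaching 1 FPKM in wild type alone. Dag1, the laminin receptor dystroglycan, lay between 90.7 and 117 FPKM and was not called (log2 change -0.006, limma adjusted p = 0.983).

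Inside the cell, integrin tails are bound by talins and kindlins. Of 20 adhesion adaptors and kinases, 19 were tested, 2 fell and 1 rose. Tln2, a talin, was at 55.4, 61.8 and 64.4 FPKM in wild-type embryos 1, 2 and 3 and at 37.97, 29.8 and 37.7 FPKM in Sp8 null embryos 1, 2 and 3 (log2 change -0.77, SE 0.11, limma adjusted p = 0.00822). Fermt2, a kindlin, fell by 0.57 (limma adjusted p = 0.0287), and Tns3, a tensin, rose by 0.41 (limma adjusted p = 0.0307), both on the log2 scale. The other talin Tln1 and the epithelial kindlin Fermt1 were not called (log2 changes 0.06 and -0.11, limma adjusted p = 0.748 and 0.603).

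Of 9 genes that modify and fold collagen chains all were tested and 4 fell, although the collagen chains of this basement membrane were not called. The prolyl hydroxylase subunits P4ha1, P4ha2 and P4hb fell by 0.86, 0.79 and 0.47 in log2 terms (limma adjusted p = 0.0107, 0.00713 and 0.018). Serpinh1, the collagen chaperone, was at 103, 99.8 and 89.5 FPKM in wild-type embryos 1, 2 and 3 and at 55.8, 59.2 and 64.5 FPKM in Sp8 null embryos 1, 2 and 3 (log2 change -0.69, SE 0.08, limma adjusted p = 0.00413). Among 12 other ligands and partners of integrins 11 were found and 6 were tested, and Tgfb1, given above, was the 1 called. Fn1, which encodes fibronectin, a ligand of Itga4, Itga5 and Itgav, lay between 41.2 and 49.9 FPKM (log2 change -0.13, limma adjusted p = 0.351). Tnc and Spp1, ligands of Itga9, were at most 0.394 and 0.0568 FPKM.

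In the authors' deposited table, whose test is not described in its header, 15 of the 23 tested members had a p-value under 0.05, or 65.2%, against 31.3% of all tested genes. All 7 members called here were among them, each in the same direction. The fold change in the authors' deposited table was -16.08 for Itga4, -3.26 for Itgb8 and 1.59 for Itga9. The authors' deposited table also gave -2.24 for Itga2, which was under the filter used here, and 1.02 and 1.01 for Col4a1 and Col4a2.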

How the data were processed

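RNA-seq of 6 libraries was used. Per the file headers, the authors deposited FPKM for 49452 Ensembl build 87 genes, group means (a normalized signal), a fold change (a signed score) and a p-value. The submitters' processing notes name GRCm38, TopHat2, Cufflinks, DESeq2, SAMtools and FastQC, with no roles. Strand use is not given in the sources used here. The deposited status columns marked all member estimates as OK, and 9 tested genes had a failed estimate.

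Values were analysed as log2(FPKM + 1), which understates changes of low genes, for 12133 genes at 1 FPKM or more in at least 3 libraries. Genotype was tested with limma 3.58.1 in R 4.3.3 (mean-variance trend, two-sided, Benjamini-Hochberg over all tested genes, called under 0.05). The fit was tested on simulated data. FPKM was not converted to reads, so no counting intervals are given. Embryo numbers did not pair the libraries (correlation of deviations -0.16, -0.14 and -0.07). Coordinates are from GENCODE M21 (GRCm38), promoters from RefSeq (GRCm38.p6). 1 member is not reported here, although the counts include it. Called members and the other members at 5 FPKM or more are given in full, and of other lists the called genes with a few uncalled ones chosen after their values were seen. Members and lists were chosen with earlier results of these data known. Alternatives are in the closing section.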

Additional observations from a re-analysis of the deposited data

How the results depend on the processing

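The number of called members was 7. Without the filter on low values 2 were called, and the same number at an adjusted p under 0.01 and with Sp8 null embryo 2 and wild-type embryo 1 left out together. In the first and second of these the members left were Itga4 and Itgb8. With the embryo number as a replicate block the count was 2, again Itga4 and Itgb8. It ranged from 2 to 6 when each library was left out in turn, with 3 without Sp8 null embryo 1 or wild-type embryo 1 and 2 without wild-type embryo 2, and was between 6 and 8 under the other alternatives, a covariate for the number that leads each sample name among them (6, with Lamb1 lost). Over all genes 342 were called with no filter, 328 with the block, 325 with both libraries left out, 244 at the stricter threshold, 545 with the covariate, 316 to 642 with 1 library left out and 829 in the fit as reported.

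Of 406 values of single members under 17 or 18 alternatives each, 340 kept their direction and call, 43 lost the call, 2 (both Itgb4) gained it and 21 reversed, all 21 in 7 uncalled members. Reversed values were 0.048 and 0.071 for Col4a2, 0.016 and 0.033 for Lama1 under median-of-ratios and upper-quartile scaling, and 0.0080 for Itga5 under the latter. With both libraries left out they were 0.053 for Col4a2, 0.0085 for Lama1 and -0.12 for Lamb2. With 1 library left out the ranges were -0.057 to 0.077 for Col4a1, -0.066 to 0.040 for Col4a2, -0.14 to 0.028 for Itga5, -0.016 to 0.19 for Itgb5, -0.10 to 0.041 for Lama1, -0.065 to 0.14 for Lamb2 and -0.19 to 0.73 for Nid1. Fits with fewer libraries have fewer degrees of freedom, and otherwise the cause was not tested. Depth is known only in relative terms, so the counting error of levels near 0 could not be estimated.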

Other observations

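Lama2, the laminin alpha chain of muscle, was under the filter used here. In the authors' deposited table its fold change was 1.23 with a p-value listed as 0, while its FPKM was 2.41 in Sp8 null embryo 2 and between 0.163 and 0.656 in the other 5 libraries. With no filter on low values its limma adjusted p was 0.672.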
